A study of Mus musculus with 6 samples.

Results

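The Hippo pathway genes examined here are the kinases Stk4, Lats1 and Lats2, the transcriptional factors Yap1, Wwtr1, Tead1, Tead2 and Vgll4, and the targets Ccn1 and Ccn2. A consensus peak was counted to one of these 10 genes when its midpoint lay within 50 kb of an end of that gene and no end of another protein-coding RefSeq gene was closer. This rule uses position and no measured value, and it gave 30 of the 42632 peaks: 6 at kinases, 19 at factors and 5 at CCN targets. The peaks come from ATAC-seq, in which a transposase inserts adapters into open DNA, of mouse long-term haematopoietic stem cells (LT-HSCs). Bone marrow came from C57BL/6 mice 10 to 16 weeks old, and the sort kept cells negative for lineage markers, CD34 and Flt3 and positive for Sca1 and cKit. Confined cells (n = 3 libraries) were kept in suspension for 13 h, attached for 0.5 h to glass coated with fibronectin, then pressed for 2 h beneath a 5 µm ceiling, and detached with a dissociation reagent. Unconfined cells (n = 3) stayed in suspension for 16 h. Since only confined cells were attached and detached, effects of these steps and of the ceiling cannot be told apart. The labels call the samples biological replicates without naming animals, and p-values measure the spread between these libraries, which may be technical.

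In the Hippo pathway the kinase encoded by Stk4 (MST1) activates the kinases LATS1 and LATS2, and these phosphorylate YAP (Yap1) and TAZ (Wwtr1), which keeps them out of the nucleus. Without that mark YAP and TAZ bind the TEAD factors on DNA and drive genes such as Ccn1 and Ccn2, which encode secreted matricellular proteins. VGLL4 competes with YAP for the TEAD factors. In adherent cells YAP and TAZ respond to spreading and stiffness, and CCN1 and CCN2 are commonly used as readouts of this response. In blood, STK4 is best known for its role in T lymphocytes.

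Depth limits every value below. Libraries held 340922, 221390 and 128257 counts in confined replicates 1 to 3 and 304898, 1229478 and 983863 in unconfined replicates 1 to 3, and the 30 Hippo peaks held 232, 152 and 78 of these in confined and 186, 753 and 602 in unconfined libraries. A library with equal counts at every peak would show 23.5 CPM (counts divided by the library's total over all peaks, on the usual scale) at each, and since all peaks are 700 bp wide they can be compared on this scale. The confined libraries lay close to that level. Of 10 deciles of all peaks ranked by unconfined mean, the highest averaged 30.7 CPM in confined and 74.2 CPM in unconfined cells, and the lowest 20.4 CPM in confined and 7.38 CPM in unconfined cells. In confined replicates 2 and 3 the highest decile averaged 25.4 and 22.4 CPM, so these libraries hold little of the contrast between peaks, against 44.3 CPM in confined replicate 1. Peaks of HSC marker genes, present at 11 of 12 genes, summed to 1271 to 1408 CPM in confined and 1322 to 1401 CPM in unconfined libraries. Endothelial marker genes (5 of 5 with peaks) summed to 461 to 574 CPM in confined and 361 to 377 CPM in unconfined libraries, and stromal marker genes (5 of 6) to 232 to 343 CPM in confined and 132 to 212 CPM in unconfined ones. Peaks of B cell markers (4 of 5 genes) held 117 to 176 CPM in confined and 96.6 to 123 CPM in unconfined libraries, myeloid markers (4 of 6) 195 to 253 CPM in confined and 203 to 236 CPM in unconfined, and erythroid markers (5 of 5) 158 to 179 CPM in confined and 148 to 179 CPM in unconfined libraries. Of 7 T and NK cell markers 1 had a peak, with 15.6 to 49.9 CPM in confined and 47.2 to 115 CPM in unconfined libraries.

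Start-site sequences are shown for the genes whose start-site peaks are described below, and for Ccn1, at whose start site no consensus peak lay. RefSeq promoter entries (GRCm38.p6, the assembly also called mm10) matched 8 of the 10 genes, all but Tead1 and Ccn2. Each line gives the 250 bases before a start site, 5′ to 3′. Capitals mark GGAATG, or CATTCC on the other strand, the core of the MCAT element that TEAD factors bind.
Stk4 (+ strand, chr2:164073888-164074137): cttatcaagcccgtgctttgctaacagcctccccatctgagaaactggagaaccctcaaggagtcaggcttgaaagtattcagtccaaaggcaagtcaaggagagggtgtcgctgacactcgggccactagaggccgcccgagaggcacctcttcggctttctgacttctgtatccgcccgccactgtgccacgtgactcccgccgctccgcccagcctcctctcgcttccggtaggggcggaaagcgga
Lats2 (- strand, chr14:57746124-57746373): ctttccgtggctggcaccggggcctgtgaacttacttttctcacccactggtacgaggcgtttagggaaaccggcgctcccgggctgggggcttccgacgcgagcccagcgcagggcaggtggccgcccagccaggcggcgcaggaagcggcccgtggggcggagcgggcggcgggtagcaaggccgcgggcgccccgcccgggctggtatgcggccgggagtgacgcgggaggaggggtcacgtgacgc
Yap1 (- strand, chr9:8004597-8004846): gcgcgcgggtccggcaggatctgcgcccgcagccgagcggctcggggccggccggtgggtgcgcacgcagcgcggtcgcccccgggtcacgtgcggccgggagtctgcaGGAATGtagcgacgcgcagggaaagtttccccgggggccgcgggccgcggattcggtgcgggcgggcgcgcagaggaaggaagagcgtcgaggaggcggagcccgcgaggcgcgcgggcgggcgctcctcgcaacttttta
Wwtr1 (- strand, chr3:57575911-57576160): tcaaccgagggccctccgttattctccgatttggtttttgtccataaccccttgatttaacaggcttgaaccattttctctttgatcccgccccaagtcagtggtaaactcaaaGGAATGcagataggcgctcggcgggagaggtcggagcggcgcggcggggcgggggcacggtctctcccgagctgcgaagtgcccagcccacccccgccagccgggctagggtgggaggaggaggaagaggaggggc
Vgll4 (- strand, chr6:114969204-114969453): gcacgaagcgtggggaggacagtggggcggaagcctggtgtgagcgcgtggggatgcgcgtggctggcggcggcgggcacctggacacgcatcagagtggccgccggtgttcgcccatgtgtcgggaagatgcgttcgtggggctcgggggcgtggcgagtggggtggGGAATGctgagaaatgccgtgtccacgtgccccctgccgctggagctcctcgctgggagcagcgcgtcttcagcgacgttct
Lats1 (+ strand, chr10:7680959-7681208): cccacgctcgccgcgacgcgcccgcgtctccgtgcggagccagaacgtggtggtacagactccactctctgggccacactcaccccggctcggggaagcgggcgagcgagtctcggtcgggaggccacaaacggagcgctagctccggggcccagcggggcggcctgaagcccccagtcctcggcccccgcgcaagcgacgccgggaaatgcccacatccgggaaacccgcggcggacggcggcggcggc
Ccn1 (- strand, chr3:145649986-145650235): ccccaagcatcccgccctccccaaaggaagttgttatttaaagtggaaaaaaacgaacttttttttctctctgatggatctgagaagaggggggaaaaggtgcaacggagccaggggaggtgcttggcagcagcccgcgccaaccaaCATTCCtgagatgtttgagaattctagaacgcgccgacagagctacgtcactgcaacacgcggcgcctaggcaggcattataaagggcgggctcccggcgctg
Such a core was present once in the windows of Yap1, Wwtr1, Ccn1 and Vgll4 and in none of those of Stk4, Lats1, Lats2 and Tead2. It occurs in 12.6% of all 32851 promoter windows of this length in the table. In the windows shown the core began 141 bases before the start site at Yap1, 136 at Wwtr1, 103 at Ccn1 and 82 at Vgll4. GC boxes (GGGCGG on either strand, in 32.7% of all windows) were found 4 times at Stk4 and in the printed Lats2 window and 0 to 2 times in the others, and none overlapped a TEAD core. The AP-1 motif TGANTCA, where N is any base, was in none of these windows and in 6.75% of all. The windows of Yap1 and Lats2 printed above were 76.4% and 74.0% G and C, those of Stk4, Wwtr1 and Ccn1 60.0%, 61.6% and 54.8%, and the median of all windows was 52.4%.

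The 30 Hippo peaks were split at 23.5 CPM much as all peaks were. Of the 22 with an unconfined mean under 23.5 CPM, 17 had a higher mean in confined cells, and over all peaks this held for 84.3% of such peaks. Of the 8 above that level 1 was higher in confined cells, against 14.4% of all such peaks. In 10 of the 30 all 3 confined libraries lay above all 3 unconfined ones (background 16.8% of all peaks) and in 3 all lay below (background 13.2%), while 17 overlapped. The order of the 30 peaks in a library was compared with their mean in unconfined libraries (the other ones, for an unconfined library) as a description. Spearman's rho was 0.44, -0.24 and -0.14 in confined replicates 1 to 3 and 0.77, 0.66 and 0.71 in unconfined replicates 1 to 3 (n = 30 peaks, which share a library's depth). The highest Hippo peak was a Vgll4 peak in each unconfined library, against peaks of Vgll4, Tead1 and Stk4 in confined replicates 1, 2 and 3.

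**Figure D1:**
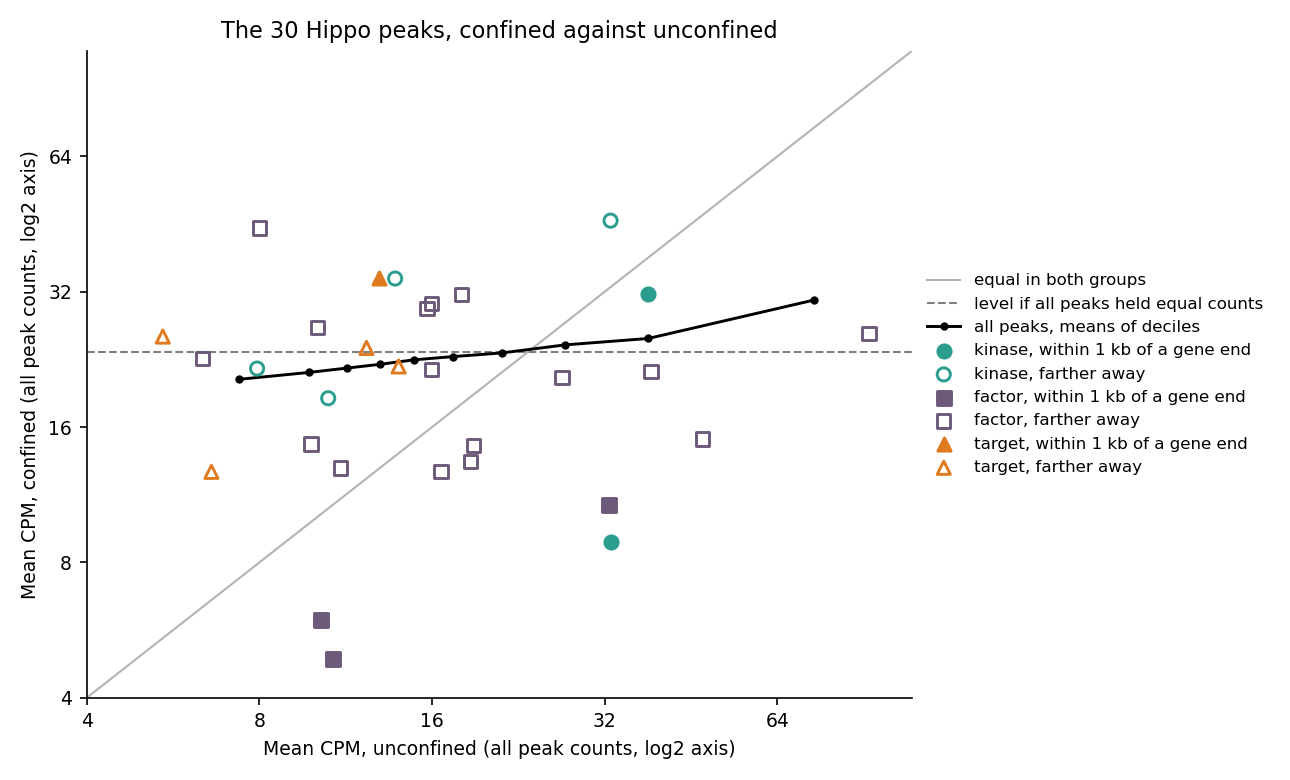
Mean CPM of each of the 30 Hippo peaks in confined (vertical) and unconfined (horizontal) cells, both on log2 axes, as means of 3 libraries each. The black line joins the means of all 42632 peaks in deciles by unconfined level, the dashed line marks 23.5 CPM and the grey line equality. The black line stays near the dashed line, the Hippo peaks scatter around it, and the filled start-site peaks of Stk4, Lats2, Wwtr1, Yap1 and Vgll4 lie below the grey line.

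At the CCN target genes, accessibility summed over the Ccn2 peaks rose in confined cells and Ccn1 had too few counts to be tested. The 3 Ccn2 peaks together held 22, 14 and 15 counts in confined replicates 1 to 3 and 12, 36 and 28 in unconfined replicates 1 to 3. The tested gene loci held 70.1% to 74.1% of all counts in confined and 76.8% to 79.1% in unconfined libraries. Scaled by TMM over these tested loci, the Ccn2 sums were 86.0, 90.7 and 166 CPM in confined libraries, against 50.7, 37.6 and 36.3 CPM in unconfined ones. The means were 114 ± 44.6 CPM in confined and 41.5 ± 7.98 CPM in unconfined cells (SD, n = 3 each). All confined values lay above all unconfined values, with a log2 fold change of 1.41 (SE 0.34; quasi-likelihood test of edgeR, adjusted p = 0.00674 over all 10031 loci tested). A tested locus had to reach about 36.6 CPM in at least 3 libraries. Ccn2 did so in 3 confined and 1 unconfined libraries, so it entered only through its confined values. With no filter the call remained (1.32, edgeR adjusted p = 0.00980). The call was lost without unconfined replicate 3 (log2 fold change 1.28, edgeR adjusted p = 0.0572) and with confined replicate 1 as the only confined library (1.08, edgeR adjusted p = 0.187). In that fit the spread comes from the unconfined libraries, the lone confined one is assumed to vary like them, and few loci were called at all (27 higher and 139 lower). Of all tested loci, 9.65% were called higher. With no filter the loci of the same decile of unconfined level as Ccn2 had a median log2 fold change of 0.09, against 1.32 for Ccn2. That decile ranks sums over loci, while the 3 Ccn2 peaks were each weak. They averaged 25.4, 21.8 and 34.3 CPM in confined and 5.43, 14.0 and 12.9 CPM in unconfined cells. All peaks of their deciles (1, 5 and 4) averaged 20.4, 22.6 and 22.1 CPM in confined and 7.38, 14.9 and 13.0 CPM in unconfined cells, and so rose as well. Stromal and endothelial marker loci, of which 2 of 4 and 1 of 3 tested were called higher, moved in the same direction. Stromal marker peaks held 19.3 to 28.6 CPM per peak in confined and 11.0 to 17.7 CPM in unconfined libraries. Endothelial ones held 20.9 to 26.1 CPM in confined and 16.4 to 17.1 CPM in unconfined libraries. All peaks of deciles 3 to 6 averaged 21.7 to 23.0 CPM in confined and 11.4 to 17.4 CPM in unconfined cells, and so rose as well. The part of these markers in the Ccn2 result was not tested. Here and below, fewer cells open at a site and less opening per cell cannot be told apart.

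Among single peaks tested, the one at the Ccn2 gene end was the only Hippo peak called, and the call depended on the filter and the scaling. It spans chromosome 10 from 24595386 to 24596085, with its midpoint 293 bp inside the gene (24595442 to 24598683). It held 11, 7 and 5 counts in confined and 7, 17 and 2 in unconfined libraries, which is 32.3, 31.6 and 39.0 CPM in confined cells, against 23.0, 13.8 and 2.03 CPM in unconfined cells. The confined libraries were alike and above all unconfined ones, which spread widely. The log2 fold change was 2.28 with an SE of 0.63 (edgeR adjusted p = 0.0172 over 9084 tested peaks). A tested peak had to reach about 31.0 CPM in at least 3 libraries, and this one did so in the 3 confined libraries alone, so it could enter only by being high there. With no filter it was not called (log2 fold change 1.45, edgeR adjusted p = 0.0662), and with loess offsets its direction turned (-0.26, edgeR adjusted p = 0.852). No fit that left out 1 library kept the call: without confined replicate 2 or 3 or unconfined replicate 1 the edgeR adjusted p was 0.0924, 0.0508 and 0.0531, and without any of the others the peak was not tested.

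The other Ccn2 peaks lay 4055 and 3437 bp outside the same gene end, from 24591037 to 24591736 and from 24591655 to 24592354, and share 82 bp, so that reads can count to both. The first held 7, 2 and 6 counts in confined and 1, 6 and 8 in unconfined libraries (20.5, 9.03 and 46.8 CPM in confined, 3.28, 4.88 and 8.13 CPM in unconfined). The second held 4, 5 and 4 counts in confined and 4, 13 and 18 in unconfined libraries (11.7, 22.6 and 31.2 CPM in confined, 13.1, 10.6 and 18.3 CPM in unconfined). Only the first separated the groups, and neither was tested.

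Ccn1, on chromosome 3 from 145646971 to 145649985, had no peak at its start site, whose sequence with its TEAD core is given above. Its 2 peaks lay 3480 and 7184 bp before the start. The nearer one, from 145653116 to 145653815, held 10, 6 and 2 counts in confined and 4, 18 and 9 in unconfined libraries, or 29.3, 27.1 and 15.6 CPM in confined and 13.1, 14.6 and 9.15 CPM in unconfined cells. All its confined values lay above the unconfined ones. The farther one, from 145656820 to 145657519, held 0, 5 and 2 counts in confined and 3, 6 and 5 in unconfined libraries, and the groups overlapped. Its count of 0 allows up to 8.80 CPM in confined replicate 1, for counting error only. Summed and scaled as for Ccn2, Ccn1 had 39.1, 71.3 and 44.1 CPM in confined and 29.6, 25.1 and 18.2 CPM in unconfined libraries. With no filter its log2 fold change was 1.03 (edgeR adjusted p = 0.103), and with links limited to 10 kb, which tests fewer loci, it passed (1.33, edgeR adjusted p = 0.0416). It was also called without confined replicate 1 (1.32, edgeR adjusted p = 0.0448). Loci of its decile of unconfined level had a median log2 fold change of 0.47 with no filter.

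**Figure D2:**
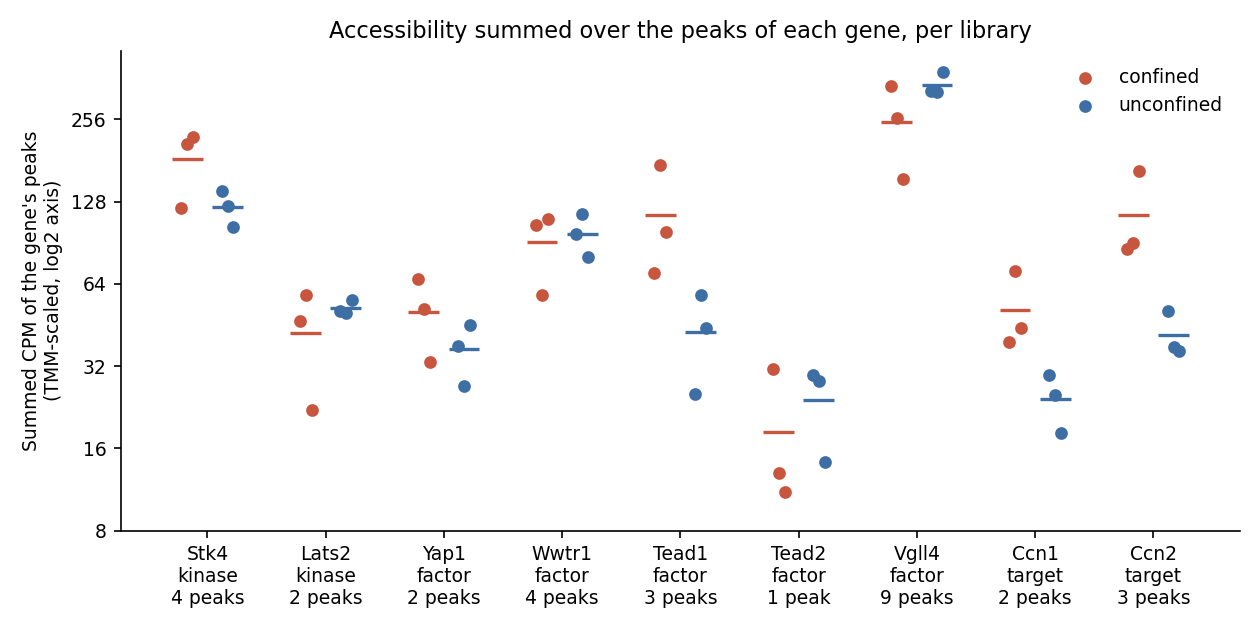
Summed TMM-scaled CPM (log2 axis) of the peaks of each Hippo gene in confined (left of each pair) and unconfined libraries. Points are libraries and bars are means of 3. Ccn2, Ccn1 and Tead1 show every confined library above every unconfined one, while the groups of the other genes overlap. The share of all loci that separate in this way was not counted.

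Neither tested kinase locus, Stk4 or Lats2, passed the threshold with all libraries. Stk4, on chromosome 2 from 164074113 to 164155524, had 4 peaks, all inside the gene. They summed to 31, 32 and 20 counts in confined and 33, 118 and 80 in unconfined libraries, or 121, 207 and 221 TMM-scaled CPM in confined and 140, 123 and 104 in unconfined cells. The groups overlapped through confined replicate 1 (edgeR log2 fold change 0.53 with SE 0.27, adjusted p = 0.156), without which the locus passed as higher (0.78, edgeR adjusted p = 0.0322).

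The Stk4 peaks differed in their values. The start-site peak (164073812 to 164074511) held 17.6, 22.6 and 54.6 CPM in confined and 32.8, 40.7 and 40.7 CPM in unconfined libraries. Its groups overlapped, and its log2 fold change of 0.06 had an SE of 0.43 and did not pass (edgeR adjusted p = 0.951) and was -0.57 scaled by total counts alone. The peak 10060 bp from the gene end (164083824 to 164084523) held 35.2, 40.7 and 62.4 CPM in confined and 42.6, 29.3 and 26.4 CPM in unconfined libraries. It did not pass (edgeR log2 fold change 1.14 with SE 0.39, adjusted p = 0.0570). This peak reached the limit of the filter in 3 confined and 1 unconfined libraries, so it entered only with its confined values. With no filter its log2 fold change was 0.27 (edgeR adjusted p = 0.746), and scaled by total counts alone 0.49. Without confined replicate 1 it passed (1.48, edgeR adjusted p = 0.0223). The peak 19967 bp from the gene end was not tested and held 26.4, 45.2 and 31.2 CPM in confined and 16.4, 13.8 and 11.2 CPM in unconfined libraries, with no overlap. The fourth, 28741 bp from the other end, held 7.80 to 36.1 CPM in confined and 3.05 to 16.4 CPM in unconfined libraries.

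Lats2 gave opposite values at its 2 peaks, on chromosome 14 near the gene at 57689662 to 57746212. The start-site peak (57745894 to 57746593) held 6, 2 and 0 counts in confined and 12, 30 and 34 in unconfined libraries, which is 17.6, 9.03 and 0 CPM in confined, against 39.4, 24.4 and 34.6 CPM in unconfined cells. The confined libraries were all below the unconfined ones, and the 0 allows up to 23.4 CPM. This peak reached the limit of the filter in 2 libraries and was not tested, and with no filter its log2 fold change was -1.63 (edgeR adjusted p = 0.0477). The other peak (57679814 to 57680513), 9498 bp beyond the far end of the gene, held 17.6, 31.6 and 15.6 CPM in confined and 0, 14.6 and 9.15 CPM in unconfined libraries, the reverse order. Peaks of like unconfined level differed in the same directions. Decile 9, that of the start-site peak, averaged 25.2 CPM in confined and 38.1 CPM in unconfined cells. Decile 1, that of the other peak, averaged 20.4 CPM in confined and 7.38 CPM in unconfined cells. The sum of both had a log2 fold change of -0.20 with an SE of 0.39 (edgeR adjusted p = 0.737).

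Lats1 had no peak under the linking rule. A peak across its start (chromosome 10 from 7681049 to 7681748) has its midpoint 198 bp from the end of Lats1 and 61 bp from that of Pcmt1, and was therefore counted to Pcmt1. It held 5, 0 and 1 counts in confined and 8, 22 and 10 in unconfined libraries, or 14.7, 0 and 7.80 CPM in confined and 26.2, 17.9 and 10.2 CPM in unconfined cells. Its groups overlapped, and it could not be told apart from the neighbouring gene.

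Among the factor genes, accessibility summed over Tead1, which encodes a DNA-binding TEAD factor, rose. Its 3 peaks inside the gene (chromosome 7, 112679356 to 112906784) summed to 18, 27 and 9 counts in confined and 6, 56 and 34 in unconfined libraries, or 70.4, 175 and 99.3 TMM-scaled CPM in confined and 25.4, 58.5 and 44.1 in unconfined cells. The means were 115 ± 54.0 in confined and 42.7 ± 16.6 in unconfined cells (SD, n = 3 each). All confined values lay above the unconfined ones (edgeR log2 fold change 1.23 with SE 0.36, adjusted p = 0.0167). The locus reached the limit of the filter in 3 confined and 2 unconfined libraries, so it too entered only with its confined values. With no filter the call remained (1.14, edgeR adjusted p = 0.0250). The call was lost without confined replicate 2 (log2 fold change 0.73, edgeR adjusted p = 0.264) or unconfined replicate 1 or 3 (1.04 and 1.15, edgeR adjusted p = 0.0654 and 0.0841), and with confined replicate 1 as the only confined library (0.52, edgeR adjusted p = 0.616). The loci of its decile had a median log2 fold change of 0.09 with no filter, but that decile again ranks sums over loci. Stromal and endothelial marker loci moved with Tead1 as with Ccn2.

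The groups separated at the Tead1 peaks deeper in the gene. The peak 46623 bp from the far end (112859811 to 112860510) held 9, 15 and 5 counts in confined and 1, 18 and 6 in unconfined libraries, or 26.4, 67.8 and 39.0 CPM in confined and 3.28, 14.6 and 6.10 CPM in unconfined cells. The groups did not overlap, and confined replicate 2 was highest. It missed the filter and was not tested, and with no filter it passed (log2 fold change 1.95, edgeR adjusted p = 0.0115). Peaks of its decile of unconfined level averaged 20.4 CPM in confined and 7.38 CPM in unconfined cells. The peak 38453 bp from the near end held 17.6, 27.1 and 23.4 CPM in confined and 0, 13.0 and 6.10 CPM in unconfined libraries, without overlap. It belongs to the same decile. The one at 17960 bp held 8.80, 27.1 and 7.80 CPM in confined and 16.4, 17.9 and 22.4 CPM in unconfined libraries, with overlap.

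Yap1 and Wwtr1 are the genes of YAP and TAZ. At the Yap1 start-site peak (chromosome 9 from 8004394 to 8005093) confined libraries held 5, 0 and 0 counts and unconfined ones 3, 10 and 14, or 14.7, 0 and 0 CPM in confined and 9.84, 8.13 and 14.2 CPM in unconfined cells. At the Wwtr1 start-site peak (chromosome 3 from 57575629 to 57576328) the counts were 11, 0 and 0 in confined and 10, 45 and 28 in unconfined libraries, or 32.3, 0 and 0 CPM in confined and 32.8, 36.6 and 28.5 CPM in unconfined cells. At both, confined replicate 1 lay within or above the unconfined range, while confined replicates 2 and 3 held no count, which allows up to 13.6 and 23.4 CPM. The unconfined values of Wwtr1 lie above these limits, while those of Yap1 do not all do so, and a lower level there was not detectable at this depth. The Wwtr1 peak did not pass (edgeR log2 fold change -0.47 with SE 0.58, adjusted p = 0.659). Its value moved to -1.50 with loess offsets and -1.55 with limma-voom (adjusted p = 0.189 and 0.120), and it passed as lower without confined replicate 1 (edgeR adjusted p = 0.0174), where both remaining confined libraries are at 0. The Yap1 peak was not tested.

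Away from the start sites Yap1 had 1 peak, 17290 bp beyond the far end of the gene (7914359 to 7915058), with 35.2, 36.1 and 23.4 CPM in confined and 19.7, 13.0 and 21.3 CPM in unconfined libraries. The groups did not overlap at this peak. Wwtr1 had 3 peaks inside the gene, with 5.87 to 46.8 CPM in confined and 9.84 to 22.8 CPM in unconfined libraries, all overlapping. Summed over its peaks, Yap1 held 66.5, 51.8 and 33.1 TMM-scaled CPM in confined and 38.1, 27.2 and 45.4 in unconfined cells (edgeR log2 fold change 0.60 with SE 0.40, adjusted p = 0.285). Wwtr1 held 106, 58.3 and 110 in confined and 97.2, 115 and 80.4 in unconfined cells (edgeR log2 fold change -0.10 with SE 0.31, adjusted p = 0.834). Both loci overlapped between the groups.

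Tead2, which encodes another TEAD factor, had 1 peak, 1089 bp inside the gene on chromosome 7 (45216532 to 45217231). It held 8, 2 and 1 counts in confined and 7, 27 and 11 in unconfined libraries, or 23.5, 9.03 and 7.80 CPM in confined and 23.0, 22.0 and 11.2 CPM in unconfined cells. The groups overlapped and it was not tested. With no filter the locus had a log2 fold change of -0.18 (edgeR adjusted p = 0.861).

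Vgll4, the competitor of YAP, had 9 peaks, the most of any Hippo gene, all inside the gene on chromosome 6 (114860621 to 114970007). The highest one in unconfined cells lay 93889 bp from the start site (114874964 to 114875663). It held 15, 4 and 2 counts in confined and 27, 85 and 118 in unconfined libraries, or 44.0, 18.1 and 15.6 CPM in confined and 88.6, 69.1 and 120 CPM in unconfined cells. All confined values lay below all unconfined ones. It did not pass (edgeR log2 fold change -0.96 with SE 0.37, adjusted p = 0.0952), but did scaled by total counts alone (-1.65, edgeR adjusted p = 0.0124) and with no filter (-1.89, edgeR adjusted p = 0.0240). Peaks of the highest decile, to which it belongs, averaged 30.7 CPM in confined and 74.2 CPM in unconfined cells.

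The Vgll4 peak 75261 bp from the start site (114893592 to 114894291) behaved alike, with 20.5, 9.03 and 15.6 CPM in confined and 32.8, 42.3 and 67.1 CPM in unconfined libraries and no overlap (edgeR log2 fold change -1.02 with SE 0.45, adjusted p = 0.150). It too passed scaled by total counts alone (-1.65, edgeR adjusted p = 0.0131) and with no filter (-1.85, edgeR adjusted p = 0.0214). The third tested peak, at 47234 bp, held 46.9, 9.03 and 7.80 CPM in confined and 52.5, 31.7 and 31.5 CPM in unconfined libraries (edgeR log2 fold change 0.27 with SE 0.44, adjusted p = 0.755), and scaled by total counts alone its log2 fold change was -0.37. At 2 further peaks the order was the reverse. At 69395 bp confined libraries held 29.3, 27.1 and 23.4 CPM and unconfined ones 3.28, 17.9 and 9.15 CPM, and at 39187 bp 26.4, 40.7 and 23.4 CPM in confined and 19.7, 8.95 and 19.3 CPM in unconfined cells, without overlap at either. All peaks of their deciles (2 and 5) averaged 21.2 and 22.6 CPM in confined and 9.76 and 14.9 CPM in unconfined cells. The remaining 4 peaks overlapped, with 0 to 52.8 CPM in confined and 3.05 to 29.3 CPM in unconfined libraries. Summed, the locus held 340, 259 and 154 TMM-scaled CPM in confined and 326, 322 and 382 in unconfined cells (edgeR log2 fold change -0.35 with SE 0.22, adjusted p = 0.234). Without confined replicate 1 it passed as lower (-0.73, edgeR adjusted p = 0.0228).

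**Figure D3:**
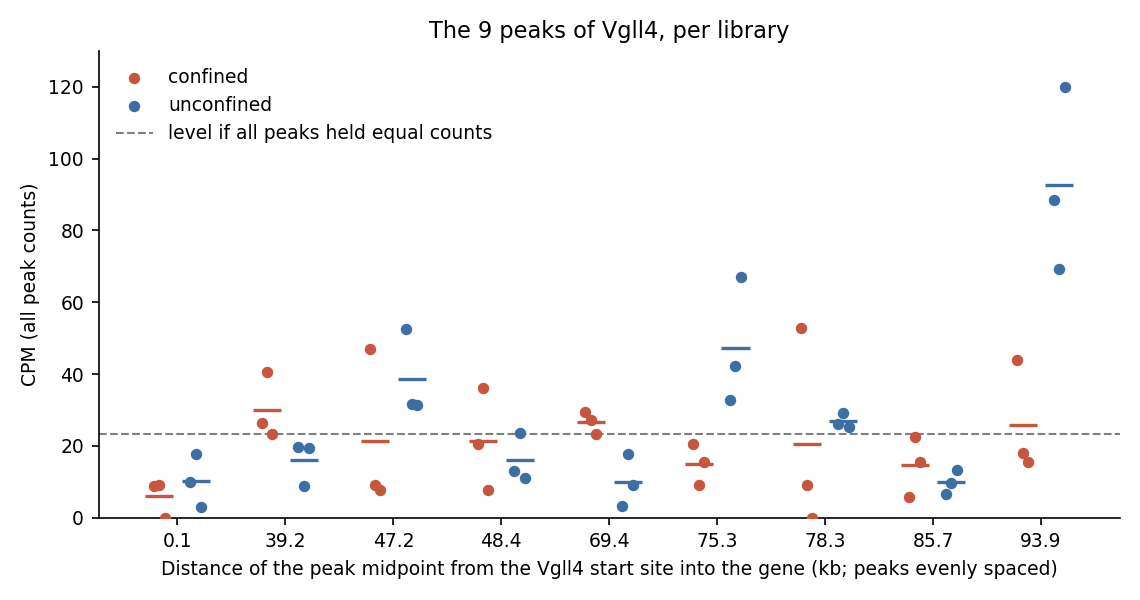
CPM of the 9 Vgll4 peaks in confined (left) and unconfined (right) libraries, ordered by distance from the start site in kb. Points are libraries, bars are means of 3 and the dashed line marks 23.5 CPM. The peaks 75261 and 93889 bp from the start site hold 9.03 to 44.0 CPM in confined libraries and 32.8 to 120 CPM in unconfined ones, without overlap.

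Set side by side by role, the CCN target peaks were the ones whose sums did not overlap between the groups. The CCN target peaks held 18.8, 22.6 and 29.6 CPM per peak in confined replicates 1 to 3 (95% Clopper-Pearson intervals 12.8 to 26.5, 14.6 to 33.3 and 17.8 to 46.3) and 12.5, 9.76 and 8.54 CPM in unconfined replicates 1 to 3 (7.50 to 19.5, 7.45 to 12.6 and 6.15 to 11.5). The kinase peaks held 21.0, 30.9 and 28.6 CPM in confined and 24.6, 22.5 and 20.8 CPM in unconfined libraries, and the factor peaks 24.2, 20.4 and 15.2 CPM in confined and 21.1, 22.6 and 23.4 CPM in unconfined libraries. The kinase and factor sums overlapped, and the target sums lay below 23.5 CPM in all unconfined libraries. Their means of 23.7 ± 5.51 CPM per peak in confined and 10.3 ± 2.01 CPM in unconfined cells (SD, n = 3 each) stood near those of all peaks of like level, which averaged 21.2 CPM in confined and 9.76 CPM in unconfined cells in decile 2. The sums of endothelial and stromal marker peaks and of the 65 peaks of other YAP target genes did not overlap either, and were also higher in confined cells. Intervals cover counting error only. Per peak, targets stood at 0.89, 0.73 and 1.04 times the kinase level in confined and 0.51, 0.43 and 0.41 times in unconfined libraries. No test was made of sums over these genes, which were chosen with results of these data known.

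**Figure D4:**
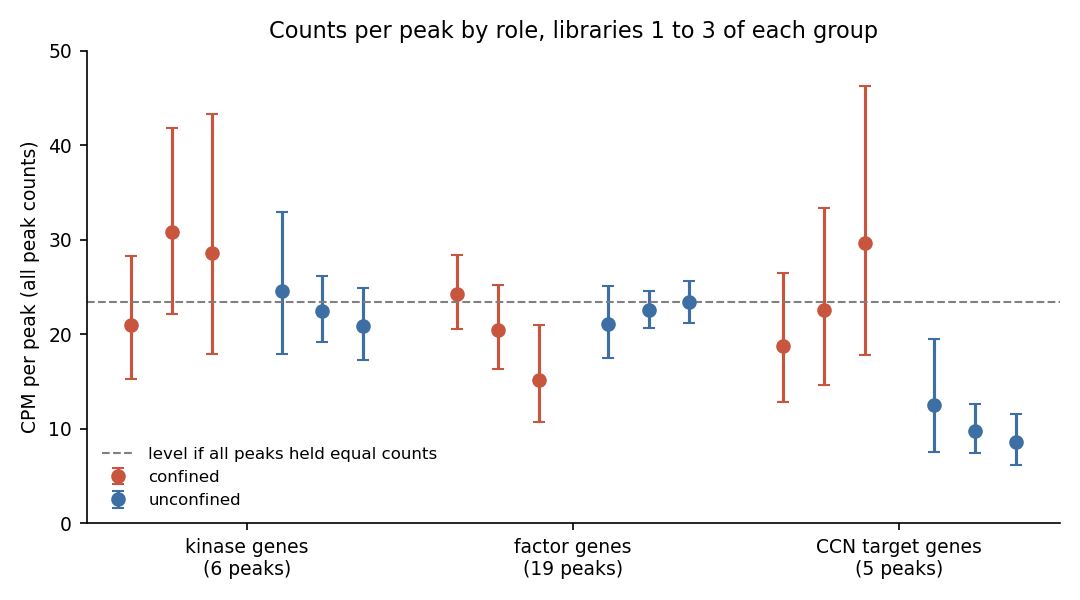
CPM per peak (linear axis from 0) of the kinase, factor and CCN target peaks in each library, confined to the left of unconfined, with 95% Clopper-Pearson intervals for counting error. The target peaks lie at 8.54 to 12.5 CPM in unconfined libraries and at 18.8 to 29.6 CPM, near the dashed line of 23.5 CPM, in confined ones.

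Start-site peaks of kinase and factor genes were low in confined cells. The 5 of them, at Stk4, Lats2, Yap1, Wwtr1 and Vgll4, averaged 18.2, 8.13 and 10.9 CPM per peak in confined and 24.9, 25.5 and 24.2 CPM in unconfined libraries, without overlap. In confined replicate 3 all but that of Stk4 held no count. This set leaves out the Ccn2 gene-end peak, which was higher in confined cells. With it, the 6 Hippo gene-end peaks held 20.53, 12.05 and 15.59 CPM per peak in confined and 24.60, 23.59 and 20.50 CPM in unconfined libraries, and the groups overlapped. All peaks within 1 kb of a gene end moved in the same direction, with 27.5, 21.2 and 21.3 CPM per peak in confined and 36.5, 34.2 and 38.2 CPM in unconfined libraries. The 24 Hippo peaks farther from gene ends held 23.2, 25.6 and 21.4 CPM in confined and 19.3, 19.6 and 20.4 CPM in unconfined libraries, and all such peaks 22.0, 24.3 and 24.2 CPM in confined and 18.8, 19.6 and 18.2 CPM in unconfined ones.

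Over the whole set, 7 of the 30 peaks were tested. Of these 1 was called higher and none lower (edgeR adjusted p), where 5.79% and 2.42% of all tested peaks were, 8.21% in all. That call is the Ccn2 peak, which entered through the confined libraries alone, so nothing is read from this count. With no filter 1 Hippo peak was called higher, the Tead1 peak at 112859811, and 3 lower, those of Lats2 and Vgll4 named above. Of all 42632 peaks, 627 and 1821 were called higher and lower in that fit. At an unadjusted p under 0.05, 2 of the 7 were higher and 2 lower, a share not counted over all peaks. DESeq2 and limma-voom called 1 of the 7 higher and none lower each. Of all 9084 tested peaks DESeq2 called 448 higher and 75 lower, and limma-voom 783 and 221. The median log2 fold change was 0.06 over the 7 and -0.02 over all tested peaks. With total counts as the only scaling the median of all tested peaks was -0.68, and fold changes of single peaks are best read against these medians. Of 7 tested loci, 2 were called higher and none lower, where 9.65% and 11.0% of all loci were, 20.7% in all. These 2, Ccn2 and Tead1, entered only with their confined values, so nothing is read from this count either. With no filter 2 of 9 Hippo loci were called higher and 0 lower, against 730 and 1242 of all 14568 loci. At an unadjusted p under 0.05 the counts were again 2 and 0, and those over all loci were not taken. DESeq2 and limma-voom also called 2 and 0. Of all 10031 tested loci DESeq2 called 359 higher and 492 lower, and limma-voom 1003 and 697. The median log2 fold change was 0.53 over the 7 tested Hippo loci and 0.02 over all. Scaling by total counts alone moved that over all loci to -0.09. Tead2 and Ccn1 missed the filter on loci and Lats1 had no peak.

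Other genes of the pathway were called in both directions. Among 37 genes that act beside or above the kinases or with the TEAD factors, 3 of 23 tested peaks rose and 2 fell, against 5.79% and 2.42% of all tested peaks. These counts were 0 and 0 with loess offsets, 1 and 0 with DESeq2 and 3 and 0 with limma-voom. With total counts only they were 1 and 6, where 348 and 2286 of all 9084 tested peaks were called. With no filter 1 of 101 peaks rose and 7 fell, against 627 and 1821 of all 42632. The peaks that rose lay near Limd1, a LIM protein that restrains LATS (log2 fold change 1.75), Mob1b, a co-activator of LATS (1.25), and Stk25, a kinase of the STRIPAK complex (1.13). Those that fell lay near Strn, a scaffold of that complex (-1.34), and Wbp2, a cofactor of YAP and TAZ (-1.25). The Limd1, Mob1b and Stk25 peaks passed the filter only with their confined values, and the Strn and Wbp2 peaks only with their unconfined ones. Nothing is therefore read from the number of peaks called. The edgeR adjusted p of these 5 ranged from 0.00836 for Limd1 to 0.0487 for Stk25. With the replicate number as a block the calls at Strn, Mob1b, Wbp2 and Stk25 were lost (edgeR adjusted p = 0.127, 0.108, 0.107 and 0.0532), with log2 fold changes of -1.17, 1.21, -1.34 and 1.34.

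Summed over loci, 3 of 27 tested genes of this list rose, namely Limd1 (1.12), Map4k4, a kinase that activates LATS (0.92), and Dchs1, a cadherin that binds FAT4 (0.99). The 4 that fell were Wbp2 (-1.20), Strn (-0.95), Stk3, which encodes MST2, the relative of STK4 (-1.29), and Nf2, which encodes merlin (-0.80). Over all loci 9.65% were called higher and 11.0% lower. Dchs1 entered the test only with its confined values and Stk3 only with its unconfined ones, so nothing is read from these counts. DESeq2 called 2 higher and 1 lower of this list, against 359 and 492 of all loci. With no filter 2 of 33 genes rose and 6 fell, against 730 and 1242 of all 14568 loci. The Wbp2 locus held 149, 175 and 55.2 TMM-scaled CPM in confined and 338, 257 and 360 in unconfined libraries, and the Limd1 locus 184, 214 and 166 in confined and 71.9, 103 and 77.8 in unconfined ones. Neither overlapped between the groups (edgeR adjusted p = 0.00279 and 0.00537). With the replicate block the calls at Strn and Nf2 were lost (log2 fold change -0.86 and -0.85, edgeR adjusted p = 0.0974 and 0.0686). With confined replicate 1 as the only confined library Wbp2 passed (-1.14, edgeR adjusted p = 0.0185) and the others did not, with log2 fold changes of 1.01 for Limd1, -0.86 for Strn, -0.69 for Nf2, -0.53 for Stk3, 0.29 for Map4k4 and 0.13 for Dchs1. The list's median log2 fold change over loci was 0.06.

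Among 19 further genes known as YAP targets, none of 6 tested peaks was called by edgeR, DESeq2 or limma-voom, and 1 was higher at an unadjusted p under 0.05. Of 14 tested loci, 2 rose and 1 fell, against 9.65% and 11.0% of all loci. The F3 locus among them entered only with its confined values, so nothing is read from these counts. With no filter 1 of 18 loci rose and 1 fell, against 730 and 1242 of all 14568 loci. DESeq2 called none in either direction, limma-voom 2 higher and 0 lower, and scaling by total counts alone 0 higher and 1 lower. Those that rose were F3, the gene of tissue factor (1.00), and Amotl2, an angiomotin (0.72), and the one that fell was Gadd45a, a DNA damage response gene (-0.84). Their edgeR adjusted p ranged from 0.0408 to 0.0445, and with confined replicate 1 as the only confined library their log2 fold changes were 0.56, 0.44 and -0.48 and did not pass. The median log2 fold change of these loci was 0.44, against 0.02 over all tested loci, which were not matched for level. The 65 peaks of these genes held 20.5 to 22.7 CPM per peak in confined and 16.2 to 19.9 CPM in unconfined libraries. Of all peaks with an unconfined mean under 23.5 CPM, 84.3% had a higher mean in confined cells.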

How the data were processed

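The deposited table holds raw counts per consensus peak, with no normalization by the authors. The submitters' processing notes name mm10, featureCounts, R 4.2.0 and SAMtools 1.14 without their roles. Which samples the peaks were called on, the aligner, the caller and any duplicate removal or read shift are not given in the sources. Peak starts and ends are the authors' and are printed counted from 1. If peaks were called mostly in the deeper unconfined libraries, sites opened by confinement would be under-represented.

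Peaks were linked to RefSeq protein-coding genes of GRCm38.p6. Counts per peak, and counts summed per gene, were fitted under R 4.3.3 by edgeR 4.0.16 (glmQLFit and glmQLFTest after filterByExpr and TMM, 1 term for group, two-sided, Benjamini-Hochberg adjustment over all tested features, threshold 0.05). The filter kept 9084 of 42632 peaks and 10031 loci, the latter at about 36.6 CPM in at least 3 libraries. The fits were tested on simulated counts. DESeq2 1.42.0, limma-voom (limma 3.58.1), other scalings, filters and linking distances, and the omission of libraries were alternatives. Intervals were computed in SciPy 1.17.1 under Python 3.11.15.

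A batch number in the labels joins 1 library of each group, and the pairing for the replicate block rests on that label. Deviations from group means correlated at r = 0.0035, 0.0029 and -0.0569 across tested peaks for pairs 1 to 3, so the pairing was not visible in the counts. The genes, lists and tests were chosen with earlier results of these data known. All Hippo genes and their tested peaks are named, and of the other lists the called features.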

Additional observations from a re-analysis of the deposited data

How the results depend on the processing

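With the replicate block no call at a Hippo peak or locus changed. Over all peaks 526 were called higher and 220 lower; the counts were 348 and 2286 with total counts only, 85 and 41 with loess offsets, 3 and 7 with confined replicate 1 alone, and the lower count was 1821 with no filter, 75 with DESeq2 and 74 with the replicate block. Over all loci 968 and 1108 were called; the counts were 27 and 139 with confined replicate 1 alone and 359 and 492 with DESeq2, the higher count was 608 with total counts only, and the lower 697 with limma-voom and 713 with links within 10 kb. Leaving out 1 library gave 250 to 1696 higher and 76 to 788 lower peaks and 106 to 1472 higher and 338 to 1707 lower loci. Among Hippo peaks it gave 0 to 2 higher and 0 to 2 lower, and among Hippo loci 0 to 4 and 0 to 1. No Hippo peak was called higher with loess offsets, the mean log2 CPM filter (which left 4 Hippo peaks) or confined replicate 1 alone, and no Hippo locus in the last; 2 peaks were called lower with total counts only and 3 with no filter.

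The call at the Ccn2 peak turned to a log2 fold change of -0.26 with loess offsets, and the cause was not tested. Signs also turned at features that were not called. The Stk4 start-site peak (0.06) was -0.57 with total counts only, -0.19 with loess offsets, -0.74 with no filter, -0.0248 with the mean log2 CPM filter, -0.26 with limma-voom and -1.36 with confined replicate 1 alone, and -0.59 to 0.59 without 1 library. The Vgll4 peak at 47234 bp (0.27) was -0.37, -0.0684, -0.64, -0.0008 and -0.21 with total counts only, loess offsets, no filter, limma-voom and the block, and -0.10 to 0.35 without 1 library. The Stk4 locus was -0.0249 with confined replicate 1 alone and -0.23 with links within 10 kb, the Lats2 locus 0.011 with links within 10 kb, and the Wwtr1 locus 0.0512 with confined replicate 1 alone, 0.17 with links within 100 kb and -0.38 to 0.10 without 1 library. Confined minus unconfined, kinase, factor and target peaks differed by 4.18, -2.38 and 13.4 CPM per peak; TMM scaling over tested peaks gave 52.4, 23.8 and 66.7, since tested peaks hold 23.6% to 34.8% of confined and 43.2% to 51.2% of unconfined counts and all confined values rise alike, and confined replicate 1 alone turned the kinase value to -1.62. Leaving out 1 library gave 2.16 to 7.08, -4.52 to 0.0091 and 10.4 to 15.9.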
